A study of Mus musculus with 36 samples.

Results

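Intraepithelial lymphocyte (IEL) preparations of the mouse small intestine were compared between animals with and without the long noncoding RNA lnc13. The 4 libraries, of 36 samples in the series, were chosen by their titles: 2 were labelled lnc13-WT-DQ8 IEL (wild type, WT) and 2 lnc13-KO-DQ8 IEL (knockout, KO). Both genotypes carried DQ8, the human class II allele linked to coeliac disease, and both had been challenged with gluten, so that the knockout of lnc13 is the labelled difference between them. Neither the age of the mice nor the number of mice behind a library is given in the sources used here. How the knockout and the DQ8 allele were made is not given either. The p-values measure the spread between libraries, taken from 12 IEL, lamina propria and whole tissue libraries fitted jointly. RNA was poly(A) selected and sequenced, and the 4 libraries held 10186522 to 11116806 reads in genes. Expression is given as CPM, the read count of a gene scaled to the library total after correction of that total by a TMM factor (trimmed mean of M values), in replicates 1 and 2 of each genotype, in that order.

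IELs are mostly CD8 T cells that lie between the epithelial cells of the villus and carry cytotoxic granules at rest. In coeliac disease they are known to expand and to kill enterocytes under IL-15. In humans, lnc13 lies near IL18RAP in a region linked to coeliac disease and is known as a repressor of inflammatory genes in macrophages. The epithelium around the IELs is made of absorptive enterocytes and of secretory goblet, Paneth, enteroendocrine and tuft cells, and a preparation of IELs can carry any of them.

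The markers showed a preparation rich in epithelium. The 12 pan-epithelial markers summed to 11530 and 10330 CPM in WT and to 11760 and 11920 CPM in KO. The 18 T cell markers summed to 351 and 1194 CPM in WT and to 358 and 814 CPM in KO. The T cell sum was low in replicate 1 and high in replicate 2 of both genotypes. Relative to the epithelial sum it was 0.0304 and 0.116 in WT and 0.0304 and 0.0683 in KO. In these bulk libraries fewer cells of a type and less RNA per cell cannot be told apart. The type of the T cells also went with the replicate number. The gamma-delta receptor gene Trdc over the alpha chain gene Trac was 2.03 and 1.00 in WT and 3.13 and 1.01 in KO, and Cd8b1 over Cd8a was 0.0232 and 0.136 against 0.0272 and 0.146. Of the smooth muscle markers, the myosin light chain kinase gene Mylk made up most of the sum (158 and 156 CPM in WT and 185 and 168 CPM in KO), while Myh11, Acta2, Actg2, Des and Cnn1, which define the cell type, lay between 0 and 0.3 CPM in every library. Of the exocrine pancreas markers Clps, the gene of colipase, made up most of the sum (22.6 and 38.9 CPM in WT and 39.1 and 55.3 CPM in KO), and Amy2a5, Cel and Try4 were at 0 in all 4 libraries.

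**Figure D1:**
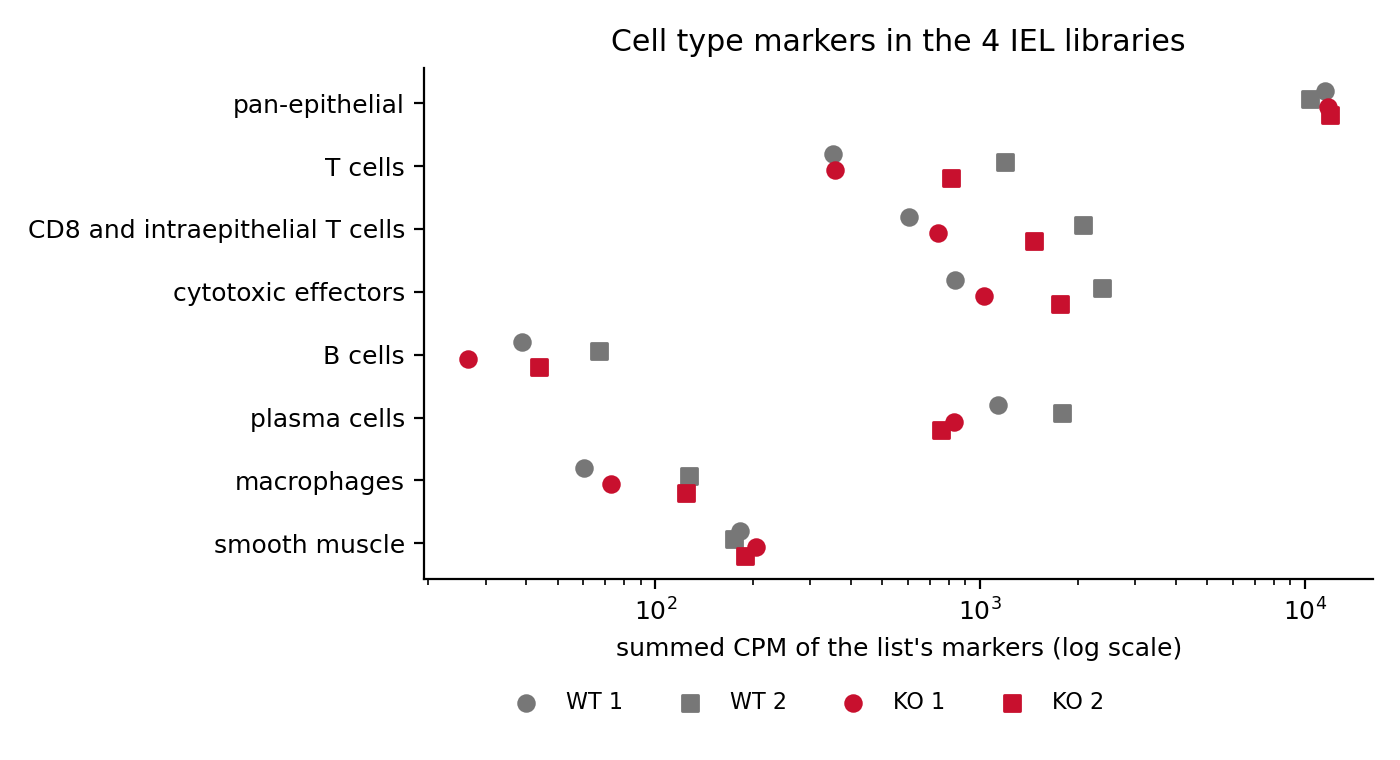
Summed CPM of marker lists (log scale) in the 4 IEL libraries, grey for WT and red for KO, circles for replicate 1 and squares for replicate 2. T cell markers lie at 351 (WT) and 358 (KO) CPM in replicate 1 and at 1194 and 814 CPM in replicate 2, while the epithelial sum stays between 10330 and 11920 CPM.

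The replicate number marked the widest contrast among the 4 libraries. Both replicate 2 libraries lay above both replicate 1 libraries in 25.0% of 14716 genes tested, and below them in 26.4%. The whole T cell, interferon and ribosomal lists took part in it: 17 of 18 T cell genes and 23 of 24 type I interferon genes were higher in both replicate 2 libraries, and 20 of 20 ribosomal protein genes were lower. What the number stands for is not given in the sources used here, and its part in the results was not tested beyond the fits with a replicate block given with the processing.

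The knockout was first read at Il18rap and its neighbours, because lnc13 lies near IL18RAP in humans. The place of lnc13 in the mouse genome was not checked. Of 8 tested genes of this stretch 2 had both KO libraries above and 2 below, with 0 past the test and a median log2 difference of 0.21. Over all genes tested the shares were 14.8% above and 12.3% below. The IL-18 receptor has a ligand-binding chain, made from Il18r1 (GRCm38 chromosome 1, 40465552 to 40500854), and an accessory chain, made from Il18rap (chromosome 1, 40515362 to 40551707). Il18rap was 0.356 and 0.4 CPM in WT and 0.306 and 1.01 CPM in KO, and Il18r1 was 0.356 and 1.70 CPM in WT and 0.714 and 2.76 CPM in KO. The genotypes overlapped for both genes, with replicate 2 higher than replicate 1 in each genotype, and neither passed the test (log2 differences 0.80, SE 1.43, and 0.77, SE 1.09). Without KO replicate 2 their signs turned (-0.31 and -0.53). Il1rl2, an IL-36 receptor gene of the same stretch, was 0.713 and 1.60 CPM in WT and 0.306 and 0.184 CPM in KO, near the detection floor. The ligand gene Il18 also overlapped between genotypes, with replicate 2 above replicate 1 in each, at 67.9 and 73.2 CPM in WT and 65.8 and 76.7 CPM in KO. lnc13 was not analysed here, and no transcript of it served to check the genotype labels. Of 7 genes reported as partners or earlier targets of lnc13, 0 had both KO libraries above both WT libraries and 2 had both below. The shares over all genes were again 14.8% and 12.3%. Among the 2 was Myd88, an adaptor of Toll-like receptors, at 40.8 and 41.4 CPM in WT and 37.4 and 35.9 CPM in KO.

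No gene passed the test across the whole table. A joint edgeR quasi-likelihood fit of the 12 IEL, lamina propria lymphocyte (LPL) and whole tissue libraries called 0 of 14716 genes higher (0.0%) and 0 lower (0.0%) in KO IEL libraries at a Benjamini-Hochberg adjusted p of 0.05. The smallest adjusted p was 1.0. An unadjusted p under 0.05 was reached by 120 genes (0.815%), 56 higher and 64 lower. This share is smaller than the 0.05 that such a threshold gives when no gene differs, so the joint fit was cautious. The 0 calls therefore do not show that large differences are absent. A DESeq2 Wald test called 1 gene, the immunoglobulin lambda constant gene Iglc1, lower in KO (0.0068% of genes). Both KO libraries lay above both WT libraries in 14.8% of genes and below them in 12.3%, and these shares are the background for every such count here. The replicate number separated more genes, 25.0% and 26.4%. With 2 libraries against 2, the smallest 2-sided p of an exact permutation test is 0.333. A lack of overlap in a single gene is therefore weak evidence of a genotype difference. The median log2 difference of all genes was -0.02. Genes named below were those with a mean of at least 5 CPM, no overlap between genotypes and the smallest unadjusted p, 10 in each direction; none of them passed the test. Members of gene lists are named for their p within the list or for their part in its count.

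**Figure D2:**
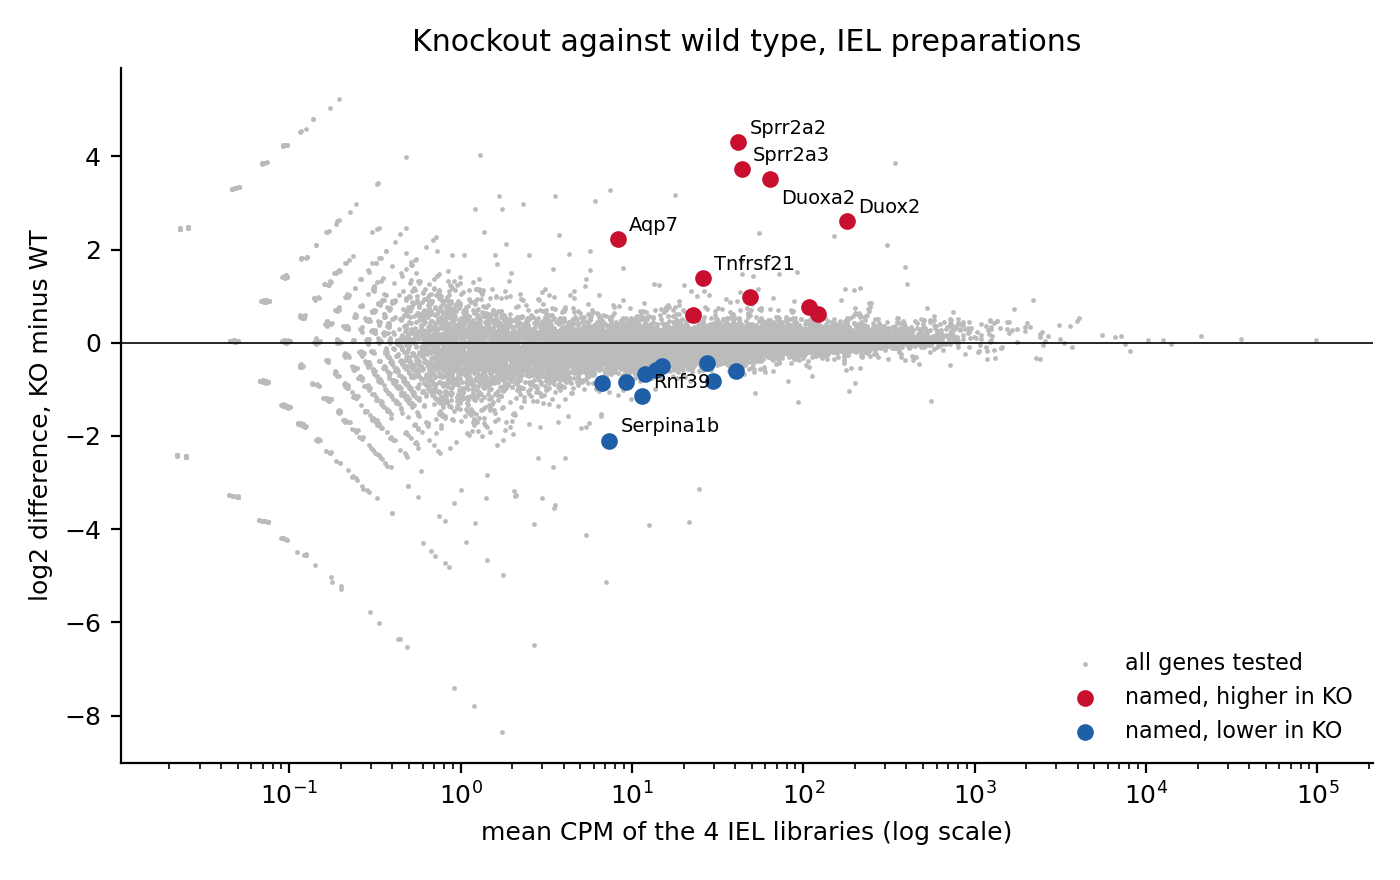
Log2 difference between KO and WT against mean CPM (log scale) for the 14716 genes tested in IEL libraries, with the 10 named genes of each direction in red and blue. Sprr2a2 (4.30), Sprr2a3 (3.73), Duoxa2 (3.52) and Duox2 (2.61) stand highest among the named genes and Serpina1b (-2.10) lowest, and 0 genes passed the test.

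Among the 10 genes named for the smallest p, the 2 largest positive differences were in small proline-rich proteins, which cross-link into the cell cortex and in the mouse gut act against Gram-positive bacteria. Sprr2a2 (chromosome 3, 92250647 to 92257304) was 2.23 and 5.89 CPM in WT and 22.6 and 136 CPM in KO (log2 difference 4.30, SE 1.15, unadjusted p = 0.00461 by edgeR). Sprr2a3 (chromosome 3, 92285304 to 92289264) was 4.10 and 8.19 CPM in WT and 33.8 and 129 CPM in KO (log2 difference 3.73, SE 1.11). The third copy, Sprr2a1, was 0.267 and 0.4 CPM in WT and 0.714 and 5.34 CPM in KO. In all 3 copies both KO libraries were above both WT libraries, and KO replicate 2 was far above KO replicate 1. Without KO replicate 2 the log2 differences of Sprr2a2 and Sprr2a3 were 2.46 and 2.44. The copies are nearly identical, so reads may be split among them and their single values are uncertain. Their sequence shows how alike they are. The 250 bases before each annotated start are given here 5′ to 3′ from RefSeq (GRCm38.p6, plus strand), Sprr2a2 at chr3:92250397-92250646 and Sprr2a3 at chr3:92285054-92285303. Capitals mark matches to the STAT palindromes TTCNNNNGAA and TTCNNNGAA and to TATAAA, each searched on both strands.

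Sprr2a2: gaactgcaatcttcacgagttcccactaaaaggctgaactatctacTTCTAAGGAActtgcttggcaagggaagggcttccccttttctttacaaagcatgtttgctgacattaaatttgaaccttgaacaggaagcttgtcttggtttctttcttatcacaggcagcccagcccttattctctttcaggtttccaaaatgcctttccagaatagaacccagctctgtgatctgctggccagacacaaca
Sprr2a3: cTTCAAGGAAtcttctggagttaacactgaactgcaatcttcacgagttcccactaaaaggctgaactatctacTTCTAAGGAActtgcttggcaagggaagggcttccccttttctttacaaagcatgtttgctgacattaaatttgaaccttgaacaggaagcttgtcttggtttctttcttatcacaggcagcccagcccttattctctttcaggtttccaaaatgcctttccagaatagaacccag

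The window of Sprr2a1 was identical to that of Sprr2a2 in 250 of 250 bases, and that of Sprr2a3 matched them in 222 of 222 bases after a shift of 28. All 3 therefore held the same TTCTAAGGAA, a match to TTCNNNNGAA, the spacing that STAT6 is known to prefer. That motif was found in 5.85% of 32851 promoter windows of the same length, TTCNNNGAA in 7.02% and TATAAA in 12.4%. A match in a window describes these letters and is not evidence of binding.

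Gasdermin C genes, whose products form pores in membranes and which mouse enterocytes express under type 2 cytokines, also had no overlap between genotypes. Gsdmc2 was 40.9 and 62.6 CPM in WT and 209 and 295 CPM in KO, Gsdmc3 was 13.9 and 22.2 CPM in WT and 74.2 and 110.1 CPM in KO and Gsdmc4 was 95.1 and 138 CPM in WT and 411 and 586 CPM in KO. Each KO library was above each WT library by a factor of more than 2 for all 3 genes, but their spread in the joint fit was wide (log2 differences 2.28, 2.35 and 2.10, with SE 1.33, 1.34 and 1.52). The joint fit takes its spread from all 3 preparations. In whole tissue Gsdmc4 was 1003 and 58.4 CPM in WT and 604 and 24.0 CPM in KO, and in LPL preparations 123 and 1101 CPM in WT and 627 and 1014 CPM in KO. There the replicates differed by more than the genotypes did. These paralogs also share sequence, so reads may be split among them. Gsdmd, the gasdermin cut by inflammatory caspases, was 112 and 166 CPM in WT and 150.0 and 168 CPM in KO in IEL libraries, and the genotypes overlapped. Of 9 tested genes of the small proline-rich and gasdermin list, 6 had both KO libraries above both WT libraries and 1 below, with 0 past the test and a median log2 difference of 2.28. These 6 were the Sprr2a and Gsdmc copies already described, in a list chosen with earlier results of these data known. The count and median restate their values and are not separate support.

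Duox2 (chromosome 2, 122279246 to 122298740), the dual oxidase that makes hydrogen peroxide at the epithelial surface, was 56.0 and 45.2 CPM in WT and 105 and 514 CPM in KO (log2 difference 2.61, SE 0.70). Its maturation factor Duoxa2, the next gene on the chromosome (chromosome 2, 122298900 to 122302885), was 6.42 and 13.99 CPM in WT and 20.7 and 213 CPM in KO (log2 difference 3.52, SE 1.10). Both genes varied alike over the 4 libraries: KO replicate 1 stood above WT by less than a factor of 4 and KO replicate 2 by far more. Their annotated starts face away from each other. The 250 bases before that of Duoxa2 are given 5′ to 3′ from RefSeq (GRCm38.p6) at chr2:122298650-122298899 on the plus strand, with the same motifs in capitals.

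Duoxa2: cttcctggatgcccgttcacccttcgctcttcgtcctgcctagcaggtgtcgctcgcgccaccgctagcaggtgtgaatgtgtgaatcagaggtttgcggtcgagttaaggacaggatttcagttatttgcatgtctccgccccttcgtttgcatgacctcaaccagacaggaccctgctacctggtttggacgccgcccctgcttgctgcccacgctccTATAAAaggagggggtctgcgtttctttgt

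Of the searched motifs, Duoxa2 held TATAAA from 30 to 25 bases before its start. The other pair of the family, Duox1 and Duoxa1, stayed near the detection floor, with Duox1 at 0.535 and 0.3 CPM in WT and 0.51 and 1.10 CPM in KO. The inducible nitric oxide synthase Nos2 was 13.6 and 2.60 CPM in WT and 2.04 and 6.63 CPM in KO, with overlap. Tnfrsf21, a death receptor, was 11.7 and 17.2 CPM in WT and 20.5 and 55.1 CPM in KO (log2 difference 1.39, SE 0.49). Retnlb, a goblet cell protein secreted in worm infection, was 0.267 and 1.20 CPM in WT and 1.53 and 11.3 CPM in KO, so that 3 of its 4 values lay near the floor and KO replicate 2 stood apart. Without KO replicate 2 the log2 differences of Duox2, Duoxa2 and Retnlb were 1.04, 1.00 and 1.06. The list of epithelial oxidases and induced secreted proteins that holds these 3 genes was not higher as a whole, with 3 of 12 genes above and 0 below, 6 positive and 6 negative differences and 0 past the test.

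Secretory cell lists were mixed. Among 14 Paneth cell and antimicrobial genes, 5 had both KO libraries above and 0 below, with 0 past the test and a median log2 difference of 0.13. Ang4, an antimicrobial ribonuclease, was 89.8 and 296 CPM in WT and 467 and 718 CPM in KO, and Mptx2, a mucosal pentraxin, was 43.9 and 78.8 CPM in WT and 104 and 125 CPM in KO. The defensin Defa24 was 608 and 952 CPM in WT and 1052 and 1077 CPM in KO and the intelectin Itln1 446 and 635 CPM in WT and 684 and 751 CPM in KO, with KO replicate 1 close to WT replicate 2. Reg3b and Reg3g, lectins against bacteria, overlapped, with Reg3g at 707 and 309.6 CPM in WT and 328 and 681 CPM in KO. Of 27 alpha-defensins tested, 8 had both KO libraries above and 3 below. Among 11 goblet cell genes, 2 were above and 1 below, with 0 past the test and a median of 0.00. Clca1, a mucus protease, was 954 and 2089 CPM in WT and 2243 and 3493 CPM in KO, and Spink4 was 174 and 184 CPM in WT and 198 and 397 CPM in KO. The mucin Muc2 was 888 and 1081 CPM in WT and 658 and 1440 CPM in KO, with both extremes in KO.

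Tuft cells, the chemosensory cells that release IL-25, had 10 of 13 genes with a positive difference, 4 with both KO libraries above, 0 below and 0 past the test. Rgs13 was 1.51 and 2.30 CPM in WT and 2.85 and 5.25 CPM in KO and Alox5, which starts leukotriene synthesis, 1.78 and 4.60 CPM in WT and 6.42 and 8.38 CPM in KO. Sh2d6 was 7.58 and 25.9 CPM in WT and 22.0 and 50.1 CPM in KO, and Avil was 6.06 and 10.9 CPM in WT and 9.38 and 21.0 CPM in KO; in both of these WT replicate 2 exceeded KO replicate 1. The list's sum was 52.1 and 134 CPM in WT and 99.7 and 191 CPM in KO, and its median log2 difference went from 0.80 to 0.13 without KO replicate 2 and to 0.39 without WT replicate 1.

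**Figure D3:**
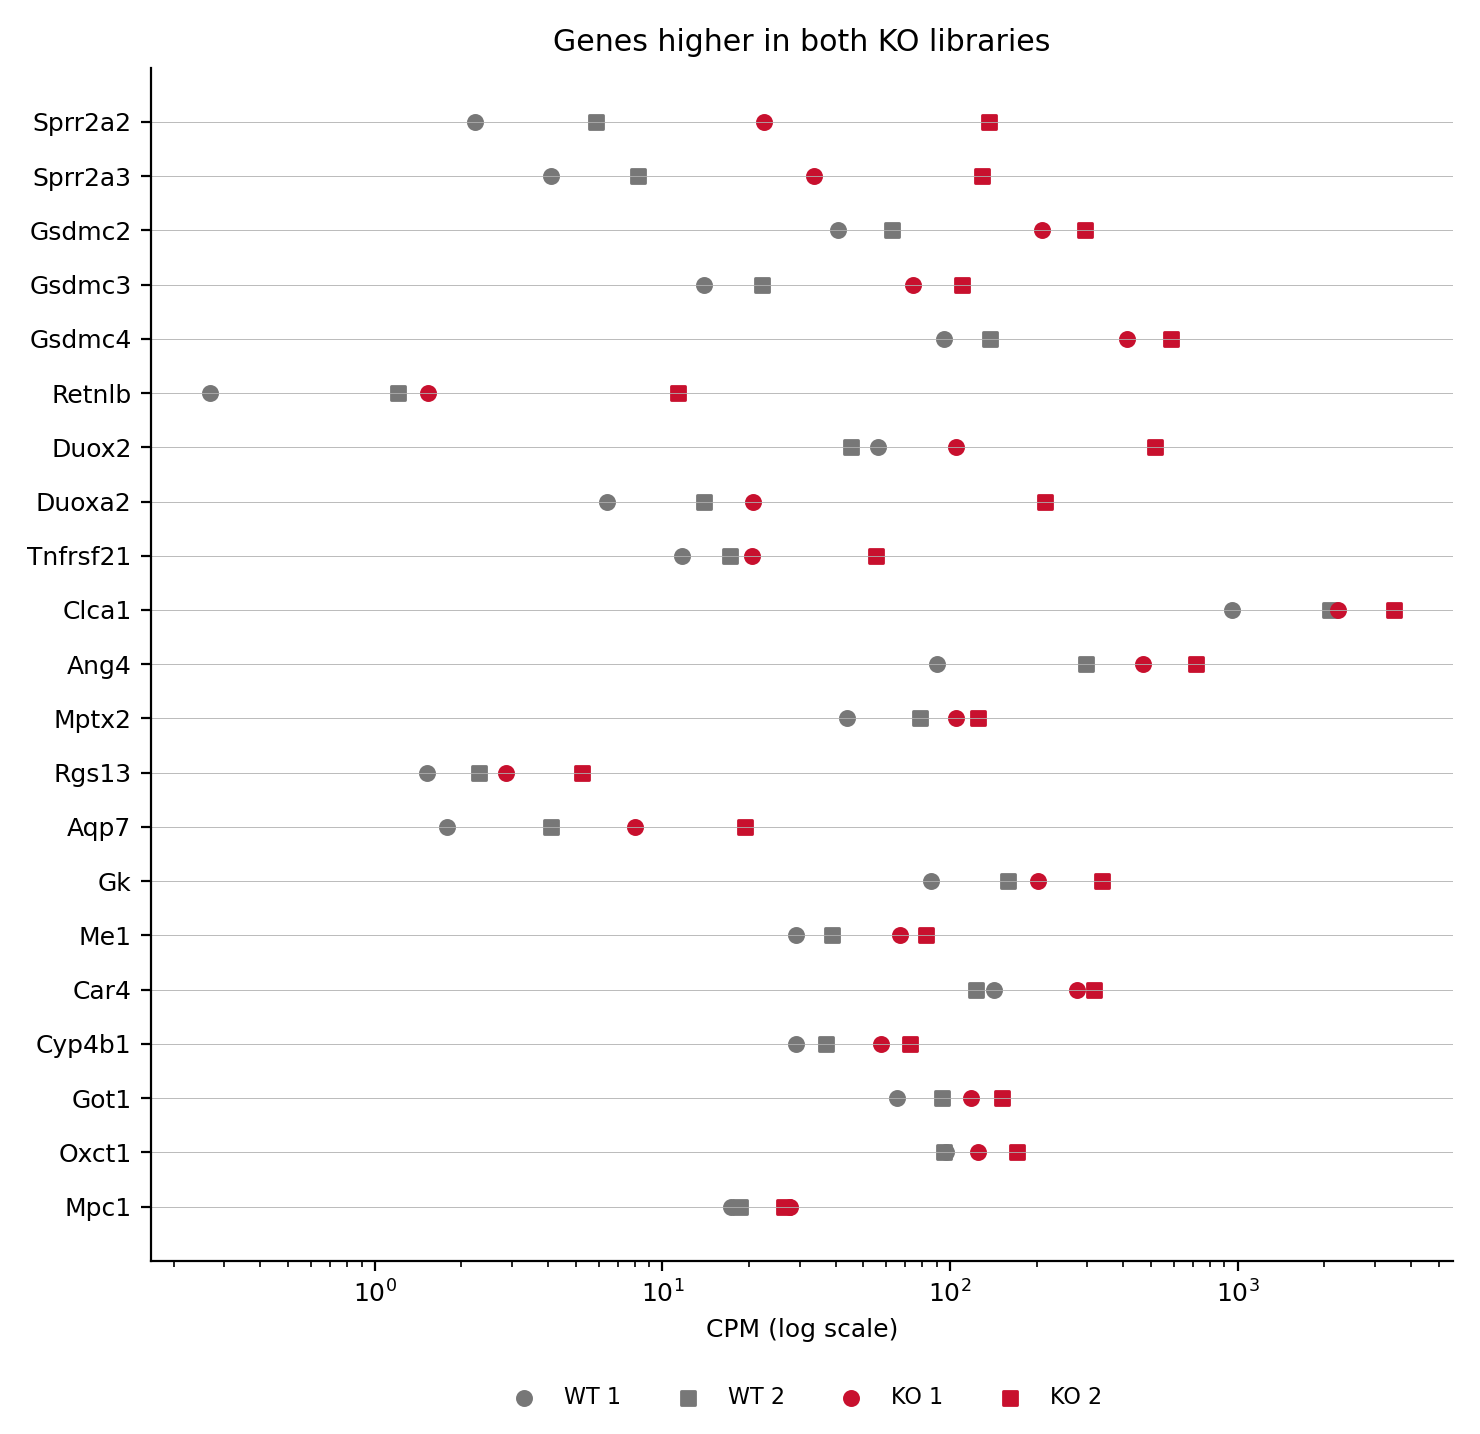
CPM (log scale) of genes with both KO libraries above both WT libraries, in the 4 IEL libraries (grey WT, red KO, circles replicate 1, squares replicate 2). Gsdmc2, Gsdmc3, Gsdmc4 and Car4 show both KO libraries close together, while Duox2, Duoxa2 and Retnlb show KO replicate 2 far from KO replicate 1; none passed the test.

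Lists of absorptive enterocyte genes differed from each other. Sugar digestion and transport had 2 of 13 genes above and 0 below (median log2 difference 0.21), sterol and bile acid handling 3 of 17 above and 3 below (median 0.02) and vitamin A metabolism 3 of 14 above and 1 below (median 0.11), with 0 past the test in each. Fat uptake, peptidase and amino acid transport genes had more members above. In the fat uptake and chylomicron list 13 of 18 genes had both KO libraries above and 0 below, with 18 of 18 differences positive, 0 past the test and a median log2 difference of 0.32. Acsl5, which activates long-chain fatty acids, was 785 and 1265 CPM in WT and 1267 and 1615 CPM in KO, Mogat2, which rebuilds glycerides from absorbed monoacylglycerol, 228 and 289.9 CPM in WT and 328 and 336 CPM in KO, and Mttp, which loads lipid onto apolipoprotein B, 1487 and 1978 CPM in WT and 2234 and 2165 CPM in KO. WT replicate 2 lay close to KO replicate 1 for Acsl5, and WT replicate 1 was the lowest library for all 3. Without WT replicate 1 the list's median was 0.15, and without WT replicate 2 it was 0.61. The list's sum followed that order, at 11420 and 16120 CPM in WT and 17700 and 17400 CPM in KO.

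Brush border peptidases finish the digestion of peptides including those of gluten. Their list had 8 of 14 genes above and 0 below, 0 past the test and a median of 0.45. It also held the trehalase gene Treh, which is not a peptidase, is in the sugar list too and overlapped between genotypes. Dpp4, which cuts after proline, was 311 and 482 CPM in WT and 496 and 829 CPM in KO, and the gene of the cytosolic dipeptidase Cndp2 was 435 and 523 CPM in WT and 616 and 731 CPM in KO. Among 13 peptide and amino acid transporters 7 were above and 0 below, with 0 past the test and a median of 0.41. The peptide carrier Slc15a1 was 119 and 225 CPM in WT and 207 and 412 CPM in KO, with overlap. The medians of these 2 lists were both 0.25 without WT replicate 1. Sums over the peptidase list were 7111 and 11110 CPM in WT and 11080 and 14700 CPM in KO, so WT replicate 2 and KO replicate 1 hardly differed.

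Glycerol and lipid enzymes, a list drawn up from earlier results of these libraries, had 11 of 21 genes above, 2 below, 0 past the test and a median of 0.14. Because of that choice the count and median partly restate those results and are not separate support. Aqp7, a channel for glycerol, was 1.78 and 4.10 CPM in WT and 8.06 and 19.3 CPM in KO (log2 difference 2.22, SE 0.67). Gk, which phosphorylates glycerol, was 85.7 and 159.6 CPM in WT and 202 and 338 CPM in KO (log2 difference 1.14, SE 0.49), and Me1, which makes NADPH for lipid synthesis, was 29.1 and 38.8 CPM in WT and 67.1 and 82.8 CPM in KO. For all 3 genes WT and KO did not overlap, which for Aqp7 was a condition of its naming, and KO replicate 2 was the highest library. Cyp4b1, a fatty acid hydroxylase of the cytochrome P450 family, was 29.1 and 37.1 CPM in WT and 57.7 and 72.6 CPM in KO (log2 difference 0.98, SE 0.28). Car4, a membrane carbonic anhydrase, was 142 and 123 CPM in WT and 276 and 318 CPM in KO (log2 difference 1.16, SE 0.48).

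Energy genes gave the most even picture. In the oxidative phosphorylation list 17 of 18 genes had both KO libraries above and 0 below, with 0 past the test and a median log2 difference of 0.26. The complex I subunit gene Ndufb8 was 110.3 and 105 CPM in WT and 141 and 134 CPM in KO, the ATP synthase subunit gene Atp5o was 335 and 322 CPM in WT and 437 and 425 CPM in KO, and Cycs, the electron carrier cytochrome c, was 172 and 184 CPM in WT and 216 and 245 CPM in KO. Replicates of a genotype lay close together in these genes. A wider family picked by symbol after those values were seen, the nuclear Nduf, Sdh, Uqcr, Cox and Atp5 genes, had 69 of 90 tested members above and 0 below, with a median of 0.24. It includes genes of the list such as Ndufb8 and Atp5o, in the same 4 libraries, so its count is not separate support. Transcripts encoded in the mitochondrion did not follow, and summed to 162100 and 226800 CPM in WT and 223000 and 182100 CPM in KO. Left-out libraries moved the list's median between 0.24 and 0.35.

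Glycolysis genes had 10 of 16 members above and 0 below, 0 past the test and a median of 0.28, with Ldha, the lactate dehydrogenase A gene, at 1413 and 1296 CPM in WT and 1718 and 1952 CPM in KO. Among the named genes 3 belong to mitochondrial use of fuels. Got1, an aspartate transaminase of the malate-aspartate shuttle, was 65.4 and 93.6 CPM in WT and 118 and 152 CPM in KO (log2 difference 0.76, SE 0.21). Oxct1, which opens the use of ketone bodies, was 96.7 and 95.1 CPM in WT and 125 and 171 CPM in KO (log2 difference 0.63, SE 0.22), and Mpc1, a subunit of the pyruvate carrier, was 17.4 and 18.7 CPM in WT and 27.7 and 26.5 CPM in KO (log2 difference 0.59, SE 0.20). Ribosomal protein genes gave 0 of 20 above and 0 below (median 0.01), and cell cycle genes 0 of 20 in each direction (median -0.17).

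**Figure D4:**
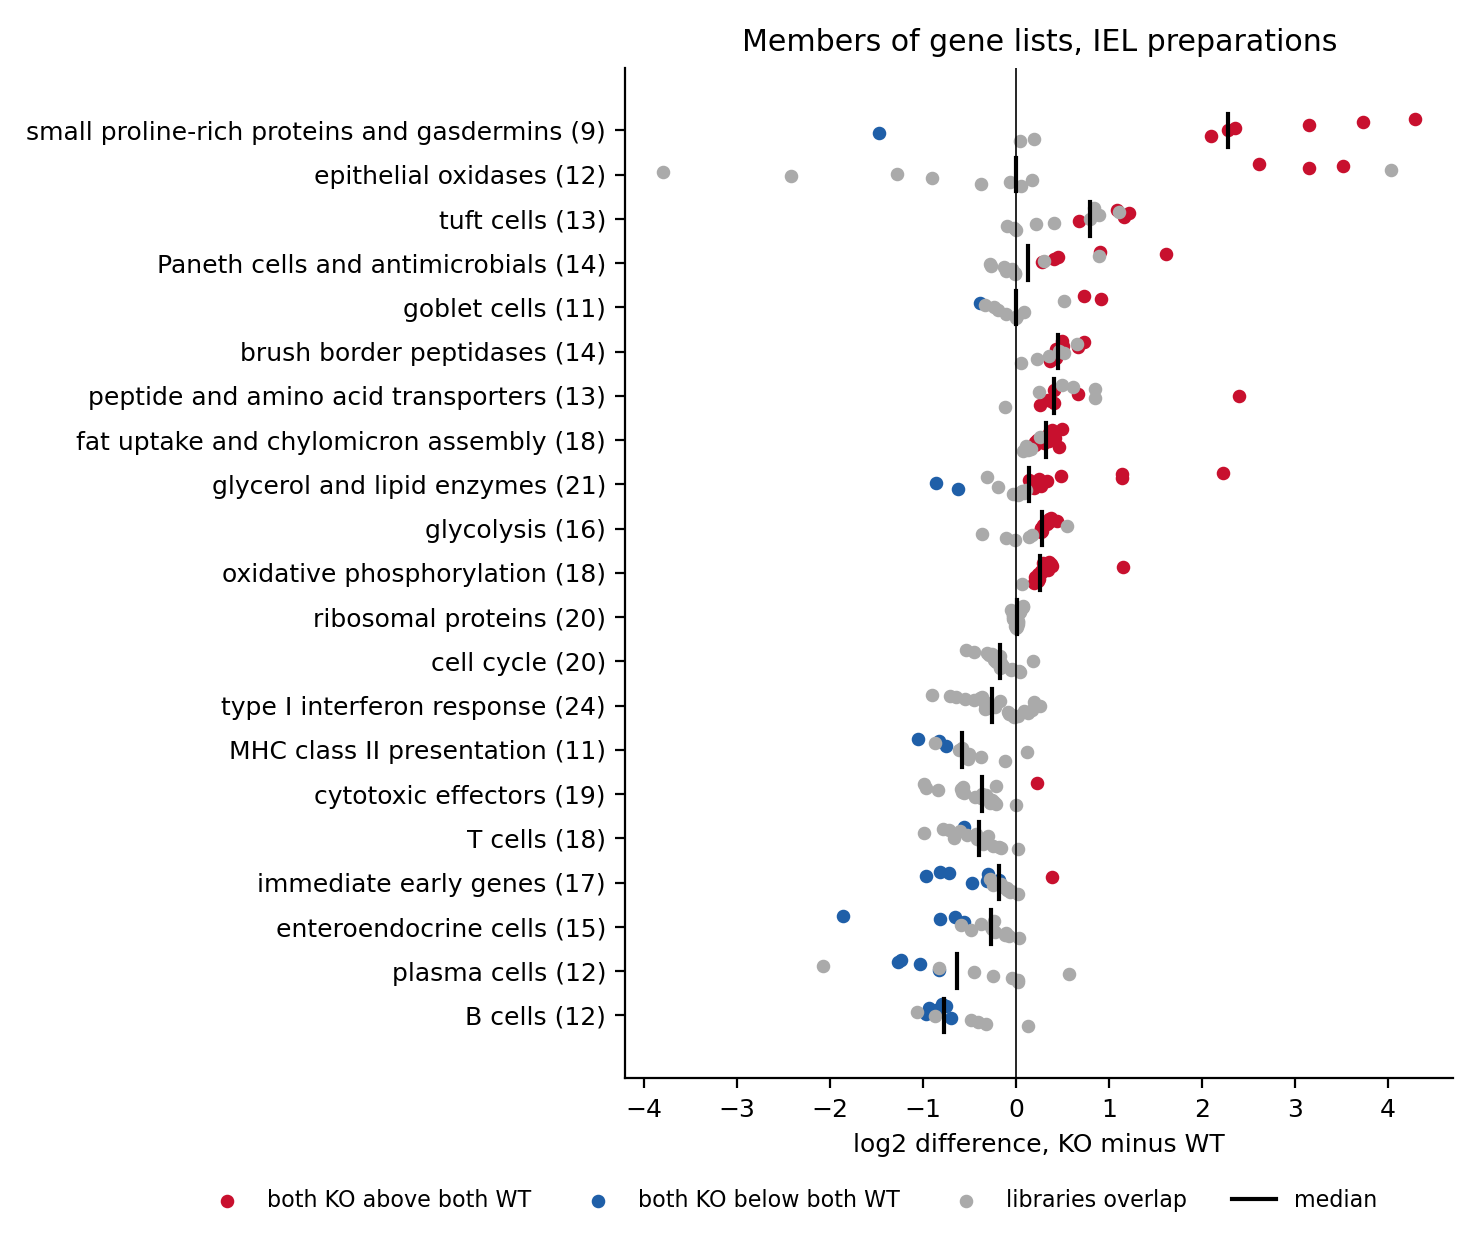
Log2 difference between KO and WT of each tested member of 21 gene lists, with the number of members in brackets and the median as a black bar; red and blue points have both KO libraries above or below both WT libraries. Oxidative phosphorylation has 17 of 18 red points, B cells 6 of 12 blue points, and ribosomal proteins only grey points near 0.

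Lower values in the knockout were found for immunoglobulin. Igha, the constant chain of IgA, was 565 and 990.1 CPM in WT and 368 and 290.1 CPM in KO (log2 difference -1.24, SE 0.96). The joining chain gene Jchain was 95.4 and 167 CPM in WT and 57.7 and 51.0 CPM in KO and the kappa constant gene Igkc 181 and 313 CPM in WT and 124 and 118 CPM in KO. In all 3 genes WT replicate 2 was the highest library and both KO libraries were lowest. Iglc1 was 26.7 and 53.9 CPM in WT and 3.98 and 1.66 CPM in KO (log2 difference -3.84, SE 1.01, unadjusted p = 0.00398 by edgeR, DESeq2 adjusted p = 0.0479). Of 80 tested heavy chain variable genes 28 had both KO libraries below both WT libraries and 2 above, and of 75 kappa variable genes 31 were below and 0 above. These segments resemble each other, so reads may be split among them. The plasma cell list had 4 of 12 genes below, 0 above and 0 past the test, and the B cell list 6 of 12 below and 0 above, with Cd79a, a chain of the B cell receptor, at 3.74 and 6.19 CPM in WT and 2.45 and 3.41 CPM in KO. B cell markers summed to only 38.8 and 66.8 CPM in WT and 26.4 and 43.8 CPM in KO. The medians of the plasma and B cell lists were -0.64 and -0.77 with all libraries, -0.29 and -0.25 without WT replicate 2, and -0.23 and -0.30 without KO replicate 1.

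Immediate early genes, which are induced within minutes of a stimulus and also during cell isolation, had 7 of 17 members below, 1 above and 0 past the test (median -0.18). Egr2, a zinc finger factor induced by T cell receptor signals, was 44.5 and 31.5 CPM in WT and 23.8 and 19.2 CPM in KO (log2 difference -0.82, SE 0.22, unadjusted p = 0.00471 by edgeR). Nr4a1, another early response to that receptor, was 122 and 159.9 CPM in WT and 67.3 and 103 CPM in KO (log2 difference -0.72, SE 0.31), and Egr1 was 892 and 778 CPM in WT and 678 and 526 CPM in KO. Fos was 1250 and 1266 CPM in WT and 1160 and 1058 CPM in KO, with little between the genotypes. Part of this list is far above whole tissue in both cell preparations: Egr2 was 0.604 and 0.824 CPM in WT and 1.09 and 0.957 CPM in KO in tissue and 88.6 and 76.5 CPM in WT and 77.6 and 62.7 CPM in KO in LPL preparations. Whether the isolation of cells had a part in the difference was not tested.

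Among the other named lower genes, Notch1, the receptor that turns crypt cells to the absorptive fate and that T cells also use, was 44.6 and 53.2 CPM in WT and 31.2 and 32.9 CPM in KO (log2 difference -0.61, SE 0.19). Rfx5, a factor for class II transcription, was 10.5 and 13.2 CPM in WT and 7.04 and 6.17 CPM in KO (log2 difference -0.84, SE 0.30). The class II invariant chain gene Cd74 was 85.7 and 430.2 CPM in WT and 47.0 and 235 CPM in KO, and H2-Ab1 was 38.7 and 93.5 CPM in WT and 41.2 and 80.6 CPM in KO; both were low in replicate 1 and high in replicate 2. Of 11 class II presentation genes 3 had both KO libraries below and 0 above, with 0 past the test. Serpina1b, a protease inhibitor with near-identical copies whose reads may be split, was 12.03 and 11.9 CPM in WT and 3.16 and 2.40 CPM in KO (log2 difference -2.10, SE 0.52). Rnf39 was 13.4 and 18.2 CPM in WT and 5.71 and 8.47 CPM in KO (log2 difference -1.15, SE 0.44), Iffo2 16.3 and 12.8 CPM in WT and 9.18 and 9.21 CPM in KO, and Cdkn3, a phosphatase of the cell cycle, 9.98 and 7.19 CPM in WT and 5.51 and 3.96 CPM in KO. The transcription repressor Hic2, the ubiquitin ligase Rnf34 and the helicase Ddx10 had log2 differences of -0.59, -0.49 and -0.43 (SE 0.20, 0.18 and 0.16), with tight replicates.

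Enteroendocrine genes had 4 of 15 members below, 0 above and 0 past the test (median -0.27). Nts, the gene of neurotensin, was 3.48 and 2.20 CPM in WT and 0.816 and 0.737 CPM in KO (log2 difference -1.86, SE 0.51), a low level in all 4 libraries. The proglucagon gene Gcg was 35.4 and 20.1 CPM in WT and 16.4 and 15.1 CPM in KO and the somatostatin gene Sst 6.33 and 5.70 CPM in WT and 4.89 and 2.76 CPM in KO. WT replicate 1 was the highest library for the 3 hormones, and without it the list's median was 0.18.

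**Figure D5:**
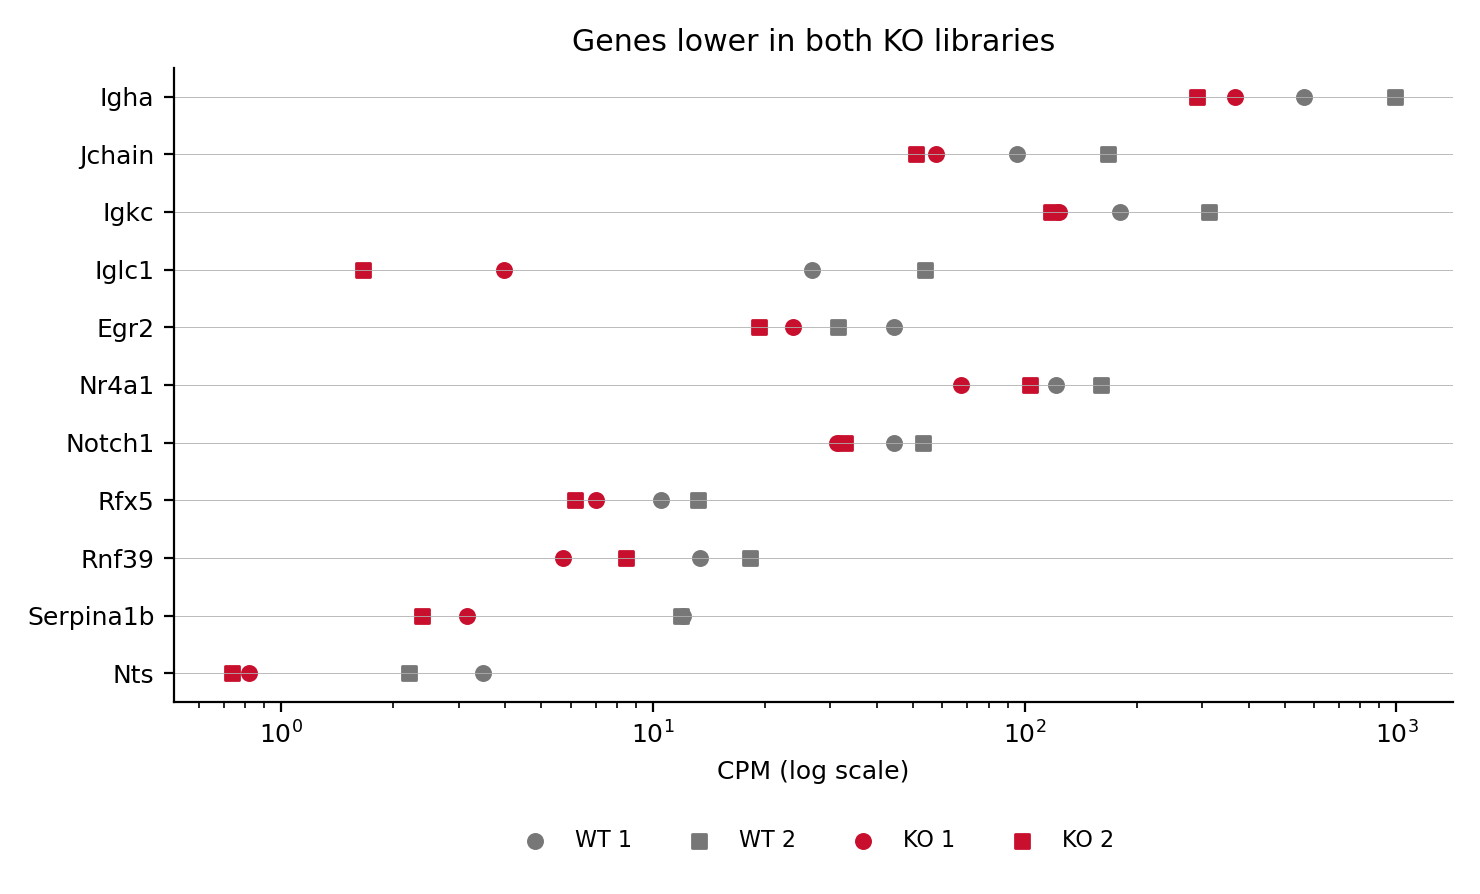
CPM (log scale) of genes with both KO libraries below both WT libraries in the 4 IEL libraries (grey WT, red KO, circles replicate 1, squares replicate 2). Iglc1 lies at 26.7 and 53.9 CPM in WT and 3.98 and 1.66 CPM in KO, and none of the genes passed the edgeR test.

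The lymphocyte genes that name the preparation did not separate the genotypes. Of 18 T cell genes 0 had both KO libraries above and 1 below, and of 19 cytotoxic effector genes 1 was above and 0 below, with 0 past the test in either list. Cd3e, which belongs to the CD3 signalling complex of T cells, was 26.6 and 78.7 CPM in WT and 30.2 and 55.3 CPM in KO. The granzyme gene Gzmb was 102 and 433 CPM in WT and 144 and 298 CPM in KO, and Itgae, the integrin that binds T cells to epithelial cadherin, 72.8 and 264 CPM in WT and 88.1 and 177 CPM in KO. In all 3, replicate 2 was above replicate 1 and the genotypes overlapped. Bcl11b, a T lineage factor, was 56.0 and 84.4 CPM in WT and 39.2 and 55.9 CPM in KO, the 1 T cell gene with both KO libraries below. The median of the T cell list was -0.39, but 0.98 without WT replicate 2 and 0.11 without KO replicate 1. Cytotoxic genes gave -0.37, 0.84 and 0.13 in the same order. Set against the T cell sum of the same library, the cytotoxic sum was 2.39 and 1.99 in WT and 2.88 and 2.16 in KO, and Gzmb over Cd3e was 3.83 and 5.50 against 4.78 and 5.39. At 2 libraries a genotype and a T cell level that differed more than 2-fold between replicates, a change in these genes was not detectable.

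Interferon response genes were alike in this. Of 24 type I genes 0 lay above and 0 below, with Isg15, a ubiquitin-like protein, at 4.72 and 19.7 CPM in WT and 4.89 and 12.9 CPM in KO, and Ifit3, an RNA-binding antiviral protein, at 2.32 and 11.5 CPM in WT and 2.75 and 5.62 CPM in KO. Their median of -0.26 became 0.78 without WT replicate 2. Of 14 genes for signals between the epithelium and IELs 1 lay above and 0 below, with 0 past the test and a median of 0.15. Il15, the cytokine that sustains IELs, was 9.09 and 13.5 CPM in WT and 11.3 and 11.5 CPM in KO. Btnl1, a butyrophilin-like gene that maintains gamma-delta IELs, was 153 and 202 CPM in WT and 191 and 235 CPM in KO. The genotypes overlapped for both genes. Among 16 class I presentation genes 2 had both KO libraries above and 0 below, with 0 past the test and a median of 0.10. Over all genes the share above was 14.8%. Both KO libraries were above for the nonclassical class I genes H2-Q1 and H2-Q2. H2-Q1 was 96.0 and 136 CPM in WT and 138 and 184 CPM in KO (log2 difference 0.47, SE 0.22). Il33, an alarmin, was 9.27 and 14.4 CPM in WT and 12.8 and 28.9 CPM in KO (log2 difference 0.82, SE 0.37), with WT replicate 2 above KO replicate 1.

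The differences were then set beside those of whole tissue and LPL preparations of the same 2 genotypes. Both KO libraries lay above both WT libraries in 13.3% of genes in tissue and 9.89% in LPL, and below them in 12.3% and 8.6%. The test of the difference between the IEL and the tissue effect called 0 genes (0.0% of 14716, 123 at an unadjusted p under 0.05, 0 by DESeq2), and that between the IEL and the LPL effect also 0 (0.0%, 112 at an unadjusted p under 0.05, 0 by DESeq2). Sprr2a2 was 409 and 379 CPM in WT and 456 and 709 CPM in KO in tissue, a level above that of every IEL library, and 0.0749 and 4.34 CPM in WT and 0.779 and 1.48 CPM in KO in LPL preparations. Duox2 was 1230 and 584 CPM in WT and 1706 and 1842 CPM in KO in tissue and 140.4 and 286 CPM in WT and 265 and 183 CPM in KO in LPL preparations, and its log2 difference was 0.97 and 0.07 there against 2.61 in IEL. The unadjusted p for the difference of these effects was 0.112 for tissue and 0.0245 for LPL by edgeR. Aqp7 was 24.4 and 16.9 CPM in WT and 51.3 and 17.9 CPM in KO in tissue, and Gk 265 and 277 CPM in WT and 398 and 275 CPM in KO. Car4 was 740.0 and 395 CPM in WT and 895 and 1418 CPM in KO in tissue, with KO above WT in both libraries as in IEL. Igha was 949 and 2190 CPM in WT and 417 and 1206 CPM in KO in tissue, where the replicates differed by more than the genotypes. Its log2 difference was -1.24 in IEL, -0.95 in tissue and -0.99 in LPL. Plasma cell list medians were -0.64, -0.80 and -1.01 in that order, and B cell list medians -0.77, -2.5 and -3.47. In tissue 2 of 12 plasma cell genes had both KO libraries below and 1 above, and 3 of 12 B cell genes below and 0 above. In LPL 1 of 12 was below and 0 above in each list. Medians of the fat uptake list were 0.32 in IEL, 0.57 in tissue and 0.04 in LPL, those of glycolysis 0.28, 0.40 and 0.06, and those of oxidative phosphorylation 0.26, 0.17 and 0.18. For type I interferon genes the medians were -0.26, 0.68 and -1.62 and for T cells -0.39, 0.05 and -3.10, with 0 genes called for a difference between preparations.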

How the data were processed

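Poly(A) RNA of IEL, LPL and whole tissue samples had been sequenced with the NEBNext Ultra II RNA library kit, per the labels' protocols. The deposited files hold raw read counts per Entrez gene that the authors obtained from reads aligned to mm10. The count file headers name HISAT2 as the aligner, whereas TopHat stands beside featureCounts and DESeq in the submitters' processing notes. Whether the counting used strand is not given in the sources used here. Symbols were found for 25275 of 27179 IDs (99.08% of IEL reads) in a GRCm38 annotation, and promoter sequences are from RefSeq. The window of Duox2 lay inside the annotated gene and is not shown. All 27179 rows are genes, and CD8 and RNA antisense purification samples were not used here.

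The 12 libraries, 2 per genotype and preparation, were fitted as 6 groups by the quasi-likelihood method of edgeR 4.0.16 (R 4.3.3) with TMM normalisation, and p-values of the 14716 genes kept by filterByExpr were adjusted after Benjamini and Hochberg (threshold 0.05). CPM used the same factors, and SE was derived from the log2 difference and its F statistic. Alternatives were a DESeq2 1.42.0 Wald test, other factors and filters, the 4 IEL libraries alone, replicate blocks, and each IEL library left out. The fit was also run on simulated counts with 200 genes changed or none. These counts held no replicate effect shared by the genotypes. They cannot show how the fit handles the replicate contrast seen here, and their outcome is not used. Members, gene lists and tests were chosen with earlier results of these data known. The named genes were the 10 of each direction with the smallest unadjusted p among those averaging 5 CPM or more with no overlap between genotypes, without predicted genes and receptor segments; Il18rap, Il18r1 and up to 4 members of a described list were added. Other members are named where a count or level turns on them, and Myd88, Duox1, Gsdmd and the like only for their levels. Depth was 10186522 to 13620975 reads per library, so counting error is small except near 1 CPM.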

Additional observations from a re-analysis of the deposited data

Results flagged for a closer look

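Of the 86 genes checked, 4 had KO libraries on opposite sides of the WT libraries in IEL and in another preparation. Many of the 86 had been named for no overlap in IEL. Of all genes 13.3% lay above and 12.3% below in tissue, and 9.89% and 8.6% in LPL. The share of all genes on opposite sides was not counted, so the 4 are listed without a reading. Got1 had a log2 difference of 0.76 in IEL and -0.24 in LPL, where it was 72.1 and 67.6 CPM in WT and 59.4 and 59.0 CPM in KO (unadjusted p = 0.00767 for the difference of the effects by edgeR, adjusted p = 1.00). In tissue the log2 difference of Got1 was 0.46, with both KO libraries above both WT libraries as in IEL. Oxct1 had 0.63 in IEL and -0.13 in tissue, where it was 356 and 326 CPM in WT and 324 and 298 CPM in KO (unadjusted p = 0.0352, adjusted p = 1.00 by edgeR). Egr2 had -0.82 in IEL and 0.51 in tissue, at about 1 CPM or less there (unadjusted p = 0.0114, adjusted p = 1.00 by edgeR). The tuft cell gene Rgs13 had 1.09 in IEL and -2.12 in LPL, where 3 of 4 libraries were under 1 CPM (unadjusted p = 0.0707, adjusted p = 1.00 by edgeR). No difference between preparations passed the adjustment.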

How the results depend on the processing

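The joint edgeR fit called 0 genes between KO and WT IEL libraries, and so did the alternative factors and filters, the fit of the 4 IEL libraries alone and the fits without each IEL library (lowest 0, highest 0, with 75 to 184 genes at an unadjusted p under 0.05). The joint fit with a replicate block within each preparation also called 0 (569 at an unadjusted p under 0.05). The 4 IEL libraries alone with a replicate block called 73 genes, 48 higher and 25 lower, from 1 residual degree of freedom; 29 of the 86 genes checked were among them. Same-numbered libraries correlated at 0.465 in IEL, but with 2 numbers this cannot show pairing, and the labels do not say what a number shares. DESeq2 called 1 gene, 0 higher and 1 lower. The counts for the differences between preparations were 0 throughout. Of 1026 single gene values under alternatives, 985 kept their direction and side of the threshold, 30 passed it and 11 changed sign, all of the latter without 1 library. Over the fits without each library, log2 differences ranged from -0.31 to 1.43 for Il18rap, -0.53 to 2.31 for Il18r1, -0.069 to 1.10 for Slc36a1, -0.88 to 0.72 for Cd3e, -0.96 to 1.16 for Gzmb, -0.99 to 0.91 for Itgae, -2.48 to 0.77 for Cd74 and -1.45 to 0.89 for Ifit3; the cause was not tested. Such fits assume for a lone library the spread of the other groups. List medians moved by more than their replicate spread in 73 of 672 cases. With 2 libraries per genotype, small differences were beyond the reach of these tests. Large ones did not pass the joint fit either, as for Sprr2a2 with a log2 difference of 4.30.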

Other observations

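Some IEL values outside the lists described were chosen after they were seen. Pla2g4c, a cytosolic phospholipase A2 gene, was 4.46 and 83.7 CPM in WT and 282 and 996 CPM in KO in IEL libraries, and 3802 and 19.4 CPM in WT and 3064 and 8.61 CPM in KO in whole tissue, where it followed the replicate number. Regional genes were mixed: of 12 genes of the proximal intestine and iron list 2 had both KO libraries above and 5 below, and of 12 distal genes 2 above and 2 below, with 0 past the test in either. Lactase, Lct, was 1122 and 1820 CPM in WT and 1575 and 1824 CPM in KO in IEL libraries against 81.1 and 0.33 CPM in WT and 211 and 0.359 CPM in KO in tissue. Fabp6, a bile acid carrier of the ileum, had both KO libraries below both WT libraries, at 213 and 214 CPM in WT and 83.3 and 203 CPM in KO in IEL against 4955 and 3726 CPM in WT and 5737 and 4891 CPM in KO in tissue. The 20 cell cycle genes tested were all lower in both replicate 2 libraries, with the proliferation marker Mki67 at 266 and 118 CPM in WT and 191 and 119 CPM in KO. Of 10 stem cell genes 5 were lower in both, among them Olfm4 at 526 and 278 CPM in WT and 429.5 and 251 CPM in KO, and Lgr5 was not, at 6.15 and 6.89 CPM in WT and 8.67 and 3.31 CPM in KO.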
